A study of Mus musculus with 6 samples.

Results

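Haemoglobin and red cell transcripts were examined in RNA sequencing of white adipose tissue from mice on a high-fat diet (HFD). The 6 genes are the adult alpha globin genes Hba-a1 and Hba-a2, the adult beta globin genes Hbb-bs and Hbb-bt, the haem synthesis gene Alas2 and the anion exchanger gene Slc4a1. They were chosen by symbol, each matched 1 row, and they are 6 of 32759 genes in the table. All 6 libraries came from mice on the diet. The 3 THBru libraries came from mice dosed with the small molecule tetrahydroberberrubine (THBru) at 50 mg/kg/day, and the 3 HFD libraries came from mice without it. The labels used here give no strain, sex, age, fat depot or perfusion of the tissue, nor whether each library is a separate animal, so p-values measure only the spread between these libraries, which may be technical.

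Red cells carry oxygen with haemoglobin, a tetramer of alpha and beta globin chains that each hold a haem group. Mature mammalian red cells have no nucleus, and the globin messages found in blood are carried over from the erythroblast, mainly in young red cells called reticulocytes. Alas2 encodes the erythroid form of the enzyme that starts haem synthesis, and Slc4a1 encodes band 3, the chloride and bicarbonate exchanger that also anchors the red cell membrane to its skeleton. Fat holds a dense capillary bed, so globin transcripts in a piece of unperfused fat are commonly taken as a readout of the blood left in it. In bulk tissue fewer red cells and less RNA per red cell cannot be told apart.

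Total counts were 67195085 to 76995679 per library, so a count of 0 allows up to 0.0390 to 0.0446 CPM (counts per 1000000 counts of the library), which is 3 counts. All 14 mature adipocyte markers passed the minimum level for testing, but their summed CPM differed widely: 5969, 34718 and 3807 CPM in THBru 1 to 3, against 30364, 44374 and 45591 CPM in HFD 1 to 3. Each THBru library also held high levels of genes typical of another organ. Genes over 8-fold above the HFD mean and above 5 CPM took up 51.1% of all counts of THBru 1, 1.97% for THBru 2 and 24.4% for THBru 3. The summed seminal vesicle list reached 424350 CPM in THBru 1 (529 to 631 CPM in HFD), the epididymis list 48276 CPM in THBru 3 (53.8 to 61.9 CPM in HFD) and the kidney list 1239 CPM in THBru 2 (8.49 to 51.3 CPM in HFD). A CPM value of THBru 1 is therefore taken over a total of which much was counts of seminal vesicle genes, and globin levels over other denominators are given further on.

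The globin genes were not shifted in 1 direction by THBru. They were high in 1 THBru library and low in the other 2. The summed counts of the 4 globins stood at 954, 4285 and 233 CPM in THBru 1 to 3, against 1914, 1196 and 1288 CPM in HFD 1 to 3. THBru 2 lay above each HFD library, THBru 1 and THBru 3 lay below each of them, and the groups overlapped in range. These sums were 0.0954%, 0.428% and 0.0233% of the counts in THBru 1 to 3 and 0.191%, 0.120% and 0.129% in HFD 1 to 3. Counting error was small beside these gaps: the 95% Wilson interval was 0.427 to 0.430% in THBru 2 and 0.0229 to 0.0236% in THBru 3, which covers counting error only. The highest THBru library held 18.4 times the globin level of the lowest, against 1.60 times within HFD. Group means were 1824 ± 2161 CPM in THBru and 1466 ± 390 CPM in HFD (SD, n = 3 each), a ratio of means of 1.24. On the log2 scale the sign turned, with a difference of mean log2 CPM of -0.54, since the mean of CPM is set by the high THBru 2 and the mean of logs by the low THBru 3.

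**Figure D1:**
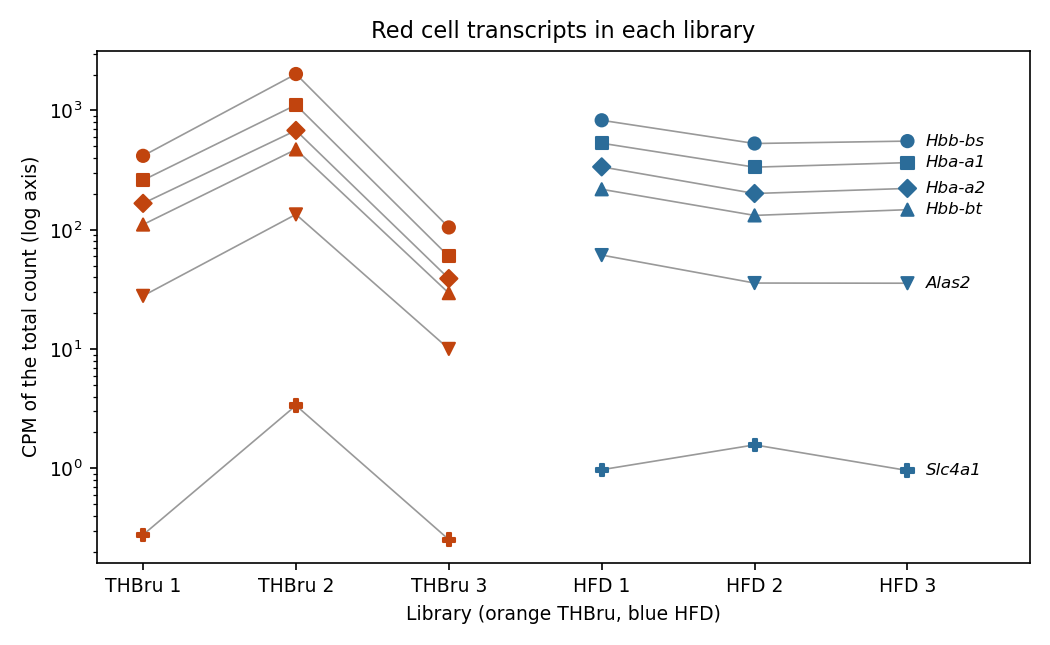
CPM of the 6 red cell genes (log axis) in each library, with lines joining the 3 values of a gene within a group and marker shapes standing for genes. All 6 genes are highest in THBru 2, and Hbb-bs spans 105 to 2020.3 CPM in THBru against 528 to 827 CPM in HFD.

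The alpha globin genes lie in the alpha globin cluster of chromosome 11. Hba-a1 (ENSMUSG00000069919) spans 32283511 to 32284465 and Hba-a2 (ENSMUSG00000069917) spans 32296489 to 32297298, both on the plus strand, in coordinates of the deposited table, taken to be GRCm38. Hba-a1 stood at 260.4, 1113 and 59.8 CPM in THBru 1 to 3, against 532, 335 and 365 CPM in HFD 1 to 3. Hba-a2 stood at 166, 680.2 and 39.0 CPM in THBru 1 to 3, against 337, 201 and 222 CPM in HFD 1 to 3. Both genes thus had the same order of libraries. In the edgeR quasi-likelihood fit over all genes, the log2 fold change of THBru against HFD was 0.27 for Hba-a1 (SE 0.91; Benjamini-Hochberg adjusted p = 0.873) and 0.28 for Hba-a2 (SE 0.90; adjusted p = 0.865), so neither differed beyond the spread between libraries.

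The beta globin genes lie in the beta globin cluster of chromosome 7, on the minus strand. Hbb-bs (ENSMUSG00000052305) spans 103826534 to 103827928 and Hbb-bt (ENSMUSG00000073940) spans 103812524 to 103813996. Laboratory mice carry different beta globin haplotypes, and the pair of Hbb-bs and Hbb-bt is that of C57BL/6, the strain of the reference genome. Hbb-bs was the most abundant of the 6 genes and stood at 417, 2020.3 and 105 CPM in THBru 1 to 3, against 827, 528 and 553 CPM in HFD 1 to 3. Hbb-bt stood at 111, 472 and 29.4 CPM in THBru 1 to 3, against 218, 132 and 147 CPM in HFD 1 to 3. The beta genes repeated the order of the alpha genes, with THBru 2 highest and THBru 3 lowest. Their log2 fold changes were 0.45 for Hbb-bs (SE 0.94; edgeR adjusted p = 0.787) and 0.35 for Hbb-bt (SE 0.87; edgeR adjusted p = 0.824).

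Within each pair, the 2 genes can hardly be told apart by their coding sequence, so the split of reads between them is uncertain while their sum is less so. In the GENCODE M21 transcripts on GRCm38, the 426 coding bases of Hba-a1 and Hba-a2 (without the stop codon) differed at 1 base, and the 441 coding bases of Hbb-bs and Hbb-bt also differed at 1 base, an identity of 99.77% in each pair. Stretches of 150 bases, the read length in the labels, occurred unchanged in the other transcript of the pair for 48.4% of positions in Hba-a1, 65.7% in Hba-a2, 58.7% in Hbb-bs and 50.7% in Hbb-bt. The coding bases around each difference are shown 5′ to 3′ because they are the only coding bases that separate the genes of a pair, with the differing base in capitals. Positions are counted from 1 at the first coding base, and the differences are C381T from Hba-a1 to Hba-a2 and C417T from Hbb-bs to Hbb-bt.
Hba-a1: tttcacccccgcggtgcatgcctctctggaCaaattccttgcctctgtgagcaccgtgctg
Hba-a2: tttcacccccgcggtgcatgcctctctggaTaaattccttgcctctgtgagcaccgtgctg
Hbb-bs: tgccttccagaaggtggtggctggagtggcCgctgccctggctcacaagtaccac
Hbb-bt: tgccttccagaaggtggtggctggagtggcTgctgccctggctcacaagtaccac

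The sequences before the gene starts are shown as a description. The 4 globins and Alas2 moved together over the libraries, but any part of these sequences in that was not tested. RefSeq promoter windows on GRCm38.p6 were found for 5 of the 6 genes, and the 250 bases before the start were searched on both strands for GATAA (the core of the site of GATA factors), CACCC (bound by the erythroid factor KLF1), CCAAT and TATAA. Capitals mark the matches. The RefSeq starts differ from those of the deposited table, so that 161 bases of the Hba-a1 window, 73 of the Hbb-bt window and 42 of the Alas2 window lie inside the gene as the table gives it, and 0 of the Hbb-bs window. Hba-a2 is not printed because its window shares an unbroken run of 247 bases with that of Hba-a1, whereas the longest run shared by Hbb-bs and Hbb-bt was 14 bases.
Hba-a1, chr11:32283422-32283671, plus strand: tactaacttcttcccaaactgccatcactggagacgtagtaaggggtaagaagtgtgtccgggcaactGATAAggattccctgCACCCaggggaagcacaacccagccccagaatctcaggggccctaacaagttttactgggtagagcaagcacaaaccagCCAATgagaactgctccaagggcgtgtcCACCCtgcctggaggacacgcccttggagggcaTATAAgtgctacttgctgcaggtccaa
Hbb-bs, chr7:103827929-103828178, minus strand: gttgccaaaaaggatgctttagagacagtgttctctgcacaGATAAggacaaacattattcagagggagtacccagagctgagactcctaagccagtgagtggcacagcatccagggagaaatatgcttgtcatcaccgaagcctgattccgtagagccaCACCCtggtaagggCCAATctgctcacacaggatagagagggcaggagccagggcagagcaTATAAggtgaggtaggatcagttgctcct
Hbb-bt, chr7:103813924-103814173, minus strand: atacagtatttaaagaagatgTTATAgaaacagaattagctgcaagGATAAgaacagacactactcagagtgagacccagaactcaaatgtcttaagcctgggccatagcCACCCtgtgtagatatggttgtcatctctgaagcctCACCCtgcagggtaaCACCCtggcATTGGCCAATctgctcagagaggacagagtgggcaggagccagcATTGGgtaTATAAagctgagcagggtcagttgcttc
Alas2, chrX:150547167-150547416, plus strand: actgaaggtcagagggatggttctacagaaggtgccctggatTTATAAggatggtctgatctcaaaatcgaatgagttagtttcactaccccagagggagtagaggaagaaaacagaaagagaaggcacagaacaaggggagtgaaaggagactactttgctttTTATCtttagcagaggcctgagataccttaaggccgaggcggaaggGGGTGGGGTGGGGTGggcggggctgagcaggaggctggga
In Hba-a1, Hbb-bs and Hbb-bt the first base of TATAA lay at -27, -29 and -28 from the start, CCAAT at -88, -76 and -75, and GATAA at -182, -209 and -204. Alas2 held GATAA on the reverse strand, as TTATC at -86, and 3 copies of GGGTG, the reverse of CACCC, between -40 and -26, but no CCAAT, and its TATAA at -207 overlapped TTATA, its own reverse. Among 32851 promoter windows of the same length, 22.6% held GATAA, 52.0% CACCC, 33.8% CCAAT and 22.8% TATAA on either strand, and 0.968% held all 4. A match describes letters in this window and no binding was measured.

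Alas2 and Slc4a1 are the non-globin genes of the group. Alas2 (ENSMUSG00000025270) lies on chromosome X from 150547375 to 150570638 on the plus strand. It stood at 27.9, 135 and 10.03 CPM in THBru 1 to 3, against 61.3, 35.8 and 35.6 CPM in HFD 1 to 3. Its order of libraries was that of the globins except that HFD 2 and HFD 3, at nearly the same level, changed places. Its log2 fold change was 0.41 (SE 0.84; edgeR adjusted p = 0.781). Slc4a1 (ENSMUSG00000006574) lies on chromosome 11 from 102348824 to 102365280 on the minus strand and had few counts, 20, 230 and 17 in THBru 1 to 3 and 75, 109 and 71 in HFD 1 to 3. These are 0.277, 3.37 and 0.253 CPM in THBru 1 to 3, against 0.974, 1.57 and 0.959 CPM in HFD 1 to 3. THBru 2 was again highest, and THBru 1 and THBru 3 were lowest. A shorter form of the Slc4a1 protein is also made by acid-secreting cells of the kidney collecting duct, and the kidney list was at 1239 CPM in THBru 2. The part of kidney RNA in the Slc4a1 level of THBru 2 was not tested. With a mean of 0.244 FPKM (the authors' fragments scaled by gene length and library depth), Slc4a1 lay under the minimum of 0.5 FPKM for the test across genes.

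Levels of different genes were compared per length, in the authors' FPKM. In each of the 6 libraries the order was Hbb-bs, Hba-a1, Hba-a2, Hbb-bt, Alas2 and Slc4a1, from high to low. Mean FPKM was 1070.0 ± 1301 for Hbb-bs, 570.5 ± 669 for Hba-a1, 429 ± 495 for Hba-a2 and 281 ± 326 for Hbb-bt in THBru (SD, n = 3). In HFD it was 803 ± 211 for Hbb-bs, 489.9 ± 128 for Hba-a1, 368 ± 107 for Hba-a2 and 229 ± 64.2 for Hbb-bt (SD, n = 3). The step from Hba-a2 to Hba-a1 was 1.26- to 1.34-fold in FPKM in the THBru libraries and 1.30- to 1.37-fold in the HFD libraries, and rests on how reads were split between them. Hbb-bs was 3.25- to 3.92-fold above Hbb-bt in FPKM in the THBru libraries and 3.44- to 3.67-fold in the HFD libraries. Across libraries the ranges of mean ± SD of neighbouring globins overlapped. Alas2 was 10.1- to 13.5-fold below Hbb-bt in FPKM in the THBru libraries and 12.2- to 14.1-fold in the HFD libraries.

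None of the 5 tested genes passed the edgeR test at an adjusted p under 0.05, where 0.118% of the 16140 genes tested passed. The number of the 5 with an unadjusted p under 0.05 was also 0, where 22.9% of all genes had one, and DESeq2 called 0 of them, against 17.2% of all genes (10.3% as higher). Their median log2 fold change was 0.35, beside 0.08 over all genes tested. The groups did not separate for any of the 5, while they separated for 22.9% of all genes (10.4% higher and 12.6% lower in THBru). THBru 2 exceeded all 3 HFD libraries in 5 of 5, as it did for 45.4% of all genes, and THBru 1 and THBru 3 lay below them in 5 of 5, as they did for 68.6% and 36.5% of all genes. The 3 conditions held together for 7.36% of all genes. The direction of the fold change rested on THBru 2: without it, the log2 fold changes were -0.73 (Hba-a1), -0.68 (Hba-a2), -0.67 (Hbb-bs), -0.63 (Hbb-bt) and -0.65 (Alas2), with edgeR adjusted p-values of 0.554 to 0.608. Without THBru 3 they were 0.80, 0.81, 0.98, 0.87 and 0.92 in the same order, with edgeR adjusted p-values of 0.354 to 0.388. With THBru 2 as the only THBru library, taken to vary as the HFD libraries do, they were 1.28 (Hba-a2) to 1.52 (Hbb-bs), and none was called (edgeR adjusted p = 0.130 to 0.186), where 2.21% of all genes were called, 2.17% as higher.

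The spread among THBru libraries was wide for the red cell genes. The ratio of the highest to the lowest THBru library, on CPM + 0.5, was 18.5 for Hba-a1, 17.2 for Hba-a2, 19.2 for Hbb-bs, 15.8 for Hbb-bt and 12.8 for Alas2, beside a median of 2.39 over all genes tested. At least as wide a spread in THBru was seen for 4.93% (Hbb-bs) to 7.16% (Alas2) of genes. In HFD the same ratio was 1.59 for Hba-a1, 1.67 for Hba-a2, 1.57 for Hbb-bs, 1.65 for Hbb-bt and 1.71 for Alas2, beside a median of 1.35. At least as wide a spread in HFD was seen for 23.5% (Alas2) to 30.8% (Hbb-bs) of genes. The summed endothelial and mature adipocyte lists also spread widely in THBru, from 367 to 3792 CPM and from 3807 to 34718 CPM.

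The globins kept nearly fixed proportions to each other while their level moved over the 18.4-fold range. The ratio of alpha to beta globin counts was 0.810, 0.719 and 0.737 in THBru 1 to 3, against 0.830, 0.812 and 0.838 in HFD 1 to 3. Each THBru ratio lay below each HFD ratio, THBru 1 by a narrow margin. The group means were 0.755 ± 0.0479 in THBru and 0.827 ± 0.0136 in HFD (SD, n = 3 each), and the two-sided exact permutation p was 0.1, the smallest that 3 against 3 libraries can give (0.5 adjusted over the 5 ratios tested). Hba-a1 to Hba-a2 was 1.56, 1.64 and 1.53 in THBru 1 to 3, against 1.58, 1.66 and 1.64 in HFD 1 to 3 (exact permutation p = 0.2, adjusted 0.5). Hbb-bt to Hbb-bs was 0.265, 0.233 and 0.281 in THBru 1 to 3, against 0.264, 0.2496 and 0.266 in HFD 1 to 3, so that the THBru values lay on both sides of HFD (exact permutation p = 0.9, adjusted 0.9). The last 2 ratios rest on the uncertain split within each pair.

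Relative to globin, Alas2 was most abundant in THBru 3. It had 29.3, 31.4 and 43.1 counts per 1000 globin counts in THBru 1 to 3, against 32.0, 29.9 and 27.7 in HFD 1 to 3. THBru 3, the library with the least globin, stood above all others, while THBru 1 and THBru 2 lay within the HFD range (exact permutation p = 0.5, adjusted 0.833). Slc4a1 varied more, with 0.291, 0.785 and 1.09 counts per 1000 globin counts in THBru 1 to 3 and 0.509, 1.32 and 0.745 in HFD 1 to 3 (exact permutation p = 0.7, adjusted 0.875). In THBru 2, the library with kidney transcripts, Slc4a1 per globin lay within the HFD range. That range rests on 71 to 109 Slc4a1 counts a library, and the part of kidney RNA in this ratio was not tested.

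**Figure D2:**
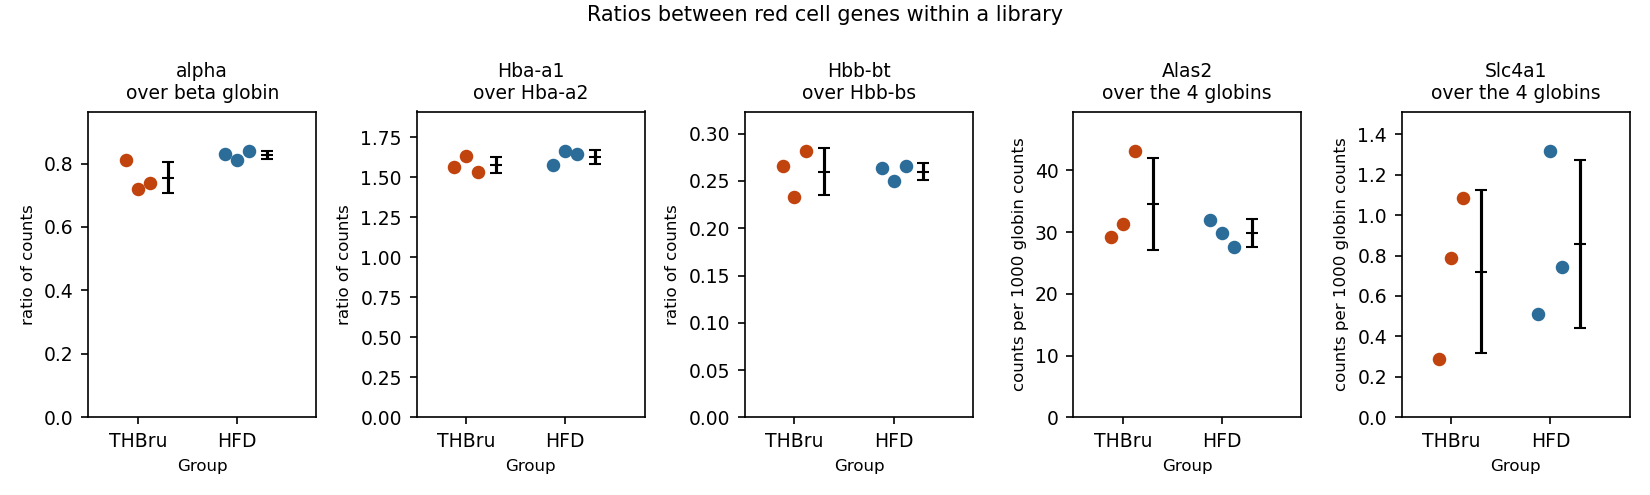
Ratios of counts between red cell genes within each library, with 1 point per library, and a bar for the group mean with its SD (n = 3); the last 2 panels are per 1000 globin counts and all axes start at 0. The alpha to beta ratio is 0.719 to 0.810 in THBru and 0.812 to 0.838 in HFD, and the Alas2 ratio of THBru 3, 43.1, stands above the other 5 points.

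The place of the THBru libraries relative to HFD depended on what the globin counts were divided by. With TMM-scaled totals the 4 globins stood at 1509, 3596 and 209 CPM in THBru 1 to 3, against 1771, 1172 and 1194 CPM in HFD 1 to 3, so THBru 1 moved inside the HFD range. When the seminal vesicle, epididymis and kidney lists were taken out of the totals, they stood at 1658, 4294 and 245 CPM in THBru 1 to 3, against 1915, 1197 and 1289 CPM in HFD 1 to 3. When the genes raised over 8-fold were taken out, a choice made after seeing the data, the globins stood at 1952, 4371 and 308 CPM in THBru 1 to 3, against 1914, 1196 and 1288 CPM in HFD 1 to 3, so THBru 1 lay just above the highest HFD library. THBru 2 above and THBru 3 below all HFD libraries thus held with each of these 4 totals, and THBru 1 below HFD held only with the full total.

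Set against vessel or fat cell transcripts, the order of libraries changed again. Globin counts per endothelial count were 2.23, 1.13 and 0.635 in THBru 1 to 3, against 0.974, 0.506 and 0.396 in HFD 1 to 3. Per 1000 counts of the mature adipocyte list, there were 159.8, 123 and 61.1 globin counts in THBru 1 to 3, against 63.0, 27.0 and 28.3 in HFD 1 to 3. THBru 1 and THBru 2 lay above all HFD libraries on both scales, and THBru 3 lay within the HFD range. The ratio of group means was 2.13 per endothelial count and 2.91 per adipocyte count. With libraries scaled to the adipocyte list in edgeR, the fold changes on the log2 scale were 1.47 (Hba-a1) to 1.63 (Alas2), none called, with adjusted p-values of 0.150 (Alas2) to 0.226 (Hba-a1), while 49.9% of all genes were called, 49.8% as higher. A denominator that is itself low in THBru 1 and THBru 3 raises every transcript that is less low there, so these ratios describe proportions and not an amount of blood.

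**Figure D3:**
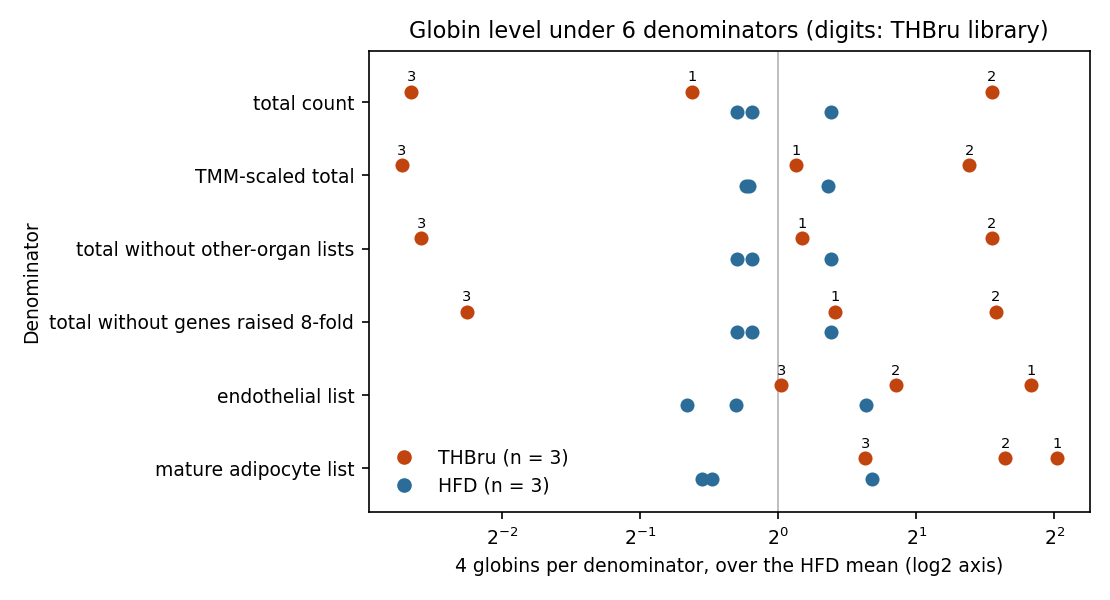
Counts of the 4 globins over 6 denominators, each divided by the mean of the 3 HFD libraries (log2 axis), with 1 point per library and digits for the THBru library. THBru 3 is below HFD with each of the 4 totals and inside the HFD range with the endothelial and adipocyte denominators.

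Other genes of the red cell were mostly at low level. Of 7 embryonic and minor globins listed for the comparison, 2 were found in the table and 5 were not analysed here. The theta-like globins Hbq1b and Hbq1a had at most 0.125 CPM in THBru and at most 0.104 CPM in HFD. The erythroid transcription factor genes Gata1 and Klf1 were at few counts. Gata1 had 8, 0 and 14 counts in THBru 1 to 3 and 15, 14 and 22 in HFD 1 to 3. Klf1 had 38, 23 and 58 counts in THBru 1 to 3 and 26, 10 and 3 in HFD 1 to 3. Neither followed the globins, since Gata1 had no count in THBru 2, the library with the most globin, and Klf1 had most in THBru 3. Tal1 and Epor of the same list were, like globin, highest in THBru 2 and low in THBru 1 and THBru 3. Within HFD both were highest in HFD 3, whereas globin was highest in HFD 1. Tal1 stood at 1.44, 9.72 and 1.09 CPM in THBru 1 to 3, against 5.70, 6.24 and 8.30 CPM in HFD 1 to 3. Epor stood at 1.33, 19.1 and 0.699 CPM against 13.7, 9.93 and 17.2 CPM. Of 13 tested genes of the list, 11 were above all HFD libraries in THBru 2 (45.4% of all genes) and 1 was below (18.5%).

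Genes were also ranked by how like their levels over the 6 libraries were to those of globin, as Pearson's r of log2(CPM + 0.5) with the summed globins over 16140 genes. Members and predicted genes were ranked too but are not named here. Among the other genes with the highest r were Slc35d2, a nucleotide sugar transporter gene (0.988), Igfbp5, an IGF binding protein gene (0.982), the transcription factor gene Klf10 (0.980), the kinase gene Nuak1 (0.978), the clock repressor gene Nr1d1 (0.977), Zfp830 (0.971), the methyltransferase gene Prmt3 (0.964) and the cyclic GMP phosphodiesterase gene Pde9a (0.964). These r values rest on 6 libraries that differ in tissue make-up, mainly on THBru 2 and THBru 3. Of all 16140 genes, members and predicted genes included, 103 had r of at least 0.9.

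**Figure D4:**
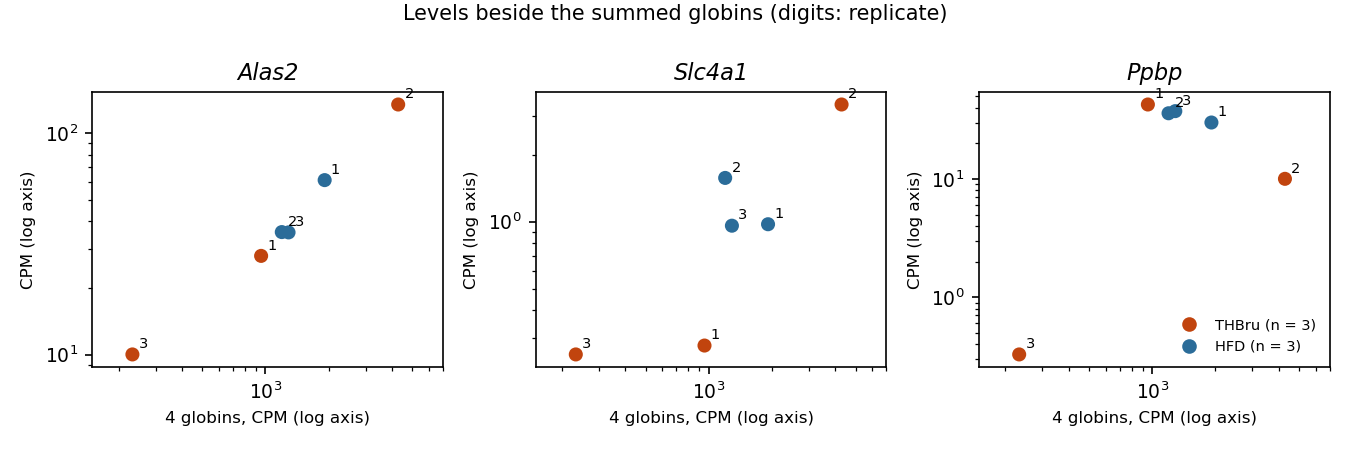
CPM of Alas2, Slc4a1 and Ppbp against the summed CPM of the 4 globins (log axes), with 1 point per library and digits for the replicate. Alas2 lines up with globin over the 6 libraries, whereas Ppbp, a platelet gene, is at 10.04 CPM in THBru 2, where globin is highest, and at 30.1 to 37.6 CPM in HFD.

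Summed genes of the red cell membrane and skeleton stood at 241, 353 and 222 CPM in THBru 1 to 3, against 208, 219 and 227 CPM in HFD 1 to 3, a far narrower range than that of globin. Of 16 membrane and skeleton genes in the table, 7 were tested and edgeR called 0 (2 at an unadjusted p under 0.05, against 22.9% of all genes). Where DESeq2 called 10.3% of all genes as higher, it called 1 of the 7, Xk. Their median log2 fold change was 0.95. THBru 2 exceeded all HFD libraries in 6 of the 7, as it did for 45.4% of all genes. The most abundant were Epb41, the protein 4.1 gene, at 178, 200.4 and 126 CPM in THBru 1 to 3 and 116, 142 and 136 CPM in HFD 1 to 3, Dmtn, the dematin gene (log2 fold change -0.65, SE 0.79), and Gypc, the glycophorin C gene (-0.90, SE 0.44). These 3 genes are expressed beyond red cells. Xk, which encodes a membrane protein of the Kell blood group complex, stood at 25.3, 4.199 and 23.4 CPM in THBru 1 to 3, against 1.47, 2.99 and 1.45 CPM in HFD 1 to 3. It was thus highest in the 2 THBru libraries with the least globin, which held 994 and 1570 CPM of the general epithelium list (402 CPM in THBru 2, 6.38 to 102 CPM in HFD). The part of other tissue in the Xk level was not tested.

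The 8 other haem synthesis genes, which act in every cell that makes haem, summed to 259, 489.6 and 487 CPM in THBru 1 to 3, against 375, 505 and 454 CPM in HFD 1 to 3. Their median log2 fold change was 0.45, and edgeR called 0 of them (4 at an unadjusted p under 0.05, against 22.9% of all genes). DESeq2 called 2 as higher, Alad and Ppox, against 10.3% of all genes. Alas1, the general form of the enzyme for which Alas2 is the erythroid form, lay within the HFD range in THBru 2, where Alas2 was highest. It stood at 51.5, 153 and 61.1 CPM in THBru 1 to 3, against 141, 276 and 196 CPM in HFD 1 to 3 (log2 fold change -1.14, SE 0.42; edgeR adjusted p = 0.201). Fech, the ferrochelatase gene, stood at 34.7, 119 and 88.7 CPM in THBru 1 to 3 and at 94.5 to 97.5 CPM in HFD, and Ppox, the protoporphyrinogen oxidase gene, at 41.7, 65.7 and 61.5 CPM in THBru 1 to 3 and 32.9 to 44.2 CPM in HFD. The 13 tested erythroid factors and late erythroid genes had a median of 0.14, with 0 called by edgeR (3 at an unadjusted p under 0.05, against 22.9% of all genes). Where DESeq2 called 10.3% of all genes as higher, it called 1 of the 13, Tent5c. Among them the most abundant were Bnip3l, which removes mitochondria from maturing red cells (-0.30, SE 0.24), Bpgm, the bisphosphoglycerate mutase gene (3.51, SE 1.34; edgeR adjusted p = 0.206), and Slc25a37, the mitoferrin-1 gene (-0.55, SE 0.31). Bpgm reached 499 CPM in THBru 1, against 62.1 and 32.6 CPM in THBru 2 and THBru 3 and 22.6 to 32.2 CPM in HFD, and its high library was the one with seminal vesicle transcripts. The part of other tissue in the Bpgm level was not tested.

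Genes that take up haem and haemoglobin or handle their iron had mostly negative fold changes. None of 12 tested was called by edgeR (5 at an unadjusted p under 0.05, against 22.9% of all genes). DESeq2 called 5 as lower, Hp, Lrp1, Blvra, Slc11a1 and Slc48a1, against 1103 of all 16140 genes tested. Of the 12, 11 had negative log2 fold changes (median -1.38), against 7354 of all 16140 genes tested. For 7 the 3 THBru values all lay below the 3 HFD values, as for 12.6% of all genes. Hp, the gene of the haemoglobin-binding protein haptoglobin, stood at 1006, 2492 and 377 CPM in THBru 1 to 3, against 6237, 7683 and 5017 CPM in HFD 1 to 3 (log2 fold change -2.16, SE 0.75; edgeR adjusted p = 0.193). Lrp1, an uptake receptor of many ligands including haem bound to hemopexin, was at -1.85 (SE 0.57), and Fth1, the ferritin heavy chain gene, at -0.84 (SE 0.38). Cd163, the macrophage receptor for haptoglobin with haemoglobin, stood at 53.0, 237 and 18.1 CPM in THBru 1 to 3, against 282, 502 and 225 CPM in HFD 1 to 3, and Hmox1, the haem oxygenase gene, at 17.0, 64.9 and 8.29 CPM in THBru 1 to 3, against 144, 99.4 and 66.1 CPM in HFD 1 to 3. These genes are expressed by fat cells and macrophages, whose lists were also lower in THBru 1 and THBru 3. The macrophage list stood at 249, 840.1 and 219 CPM in THBru 1 to 3, against 2964, 1326 and 1232 CPM in HFD 1 to 3. The part of cell make-up in these levels was not tested.

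Platelet genes had another order of libraries than the red cell genes. Ppbp, a platelet chemokine gene, stood at 42.7, 10.04 and 0.327 CPM in THBru 1 to 3, against 30.1, 36.0 and 37.6 CPM in HFD 1 to 3. THBru 2, with the most globin, thus had less Ppbp than any HFD library, and THBru 1 had the most. The same held for Gp9, a subunit gene of the platelet receptor for von Willebrand factor, at 5.45, 1.02 and 0.119 CPM in THBru 1 to 3 and 3.47, 5.05 and 4.01 CPM in HFD 1 to 3. THBru 1 did not have the most of every platelet gene. Gp1ba was also highest there, at 3.01 CPM. Pf4, Clec1b (5.06 CPM, 6.08 to 7.01 CPM in HFD) and P2ry12 (11.2 CPM, 13.6 to 21.4 CPM in HFD) lay below each HFD library in THBru 1. Of 11 tested platelet and megakaryocyte genes, 9 were lower in THBru 2 than in any HFD library (18.5% of all genes), and 1 was higher. Their median log2 fold change was -0.41. Of these 11, edgeR called 0 (1 at an unadjusted p under 0.05, against 22.9% of all genes). DESeq2 called 1, Alox12, as higher, against 10.3% of all genes. Pf4, platelet factor 4, stood at 11.9, 17.4 and 2.34 CPM in THBru 1 to 3 and at 46.3, 40.1 and 24.9 CPM in HFD 1 to 3. Alox12, a lipoxygenase gene of platelets and also of epithelia, went the other way, at 50.1, 26.7 and 52.6 CPM in THBru 1 to 3 and 11.9 to 13.6 CPM in HFD, beside the epithelium list levels given above, whose part in it was not tested.

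White cell lists were low in all libraries. The summed neutrophil list was 13.3, 49.8 and 16.1 CPM in THBru 1 to 3, against 60.8, 83.0 and 36.3 CPM in HFD 1 to 3, led by the protease gene Mmp9 (log2 fold change -0.70, SE 0.65), the growth factor receptor gene Csf3r (-1.38, SE 0.46) and the collagenase gene Mmp8 (-3.26, SE 1.96). The summed T, B and NK lymphocyte list was 16.3, 27.1 and 9.63 CPM in THBru 1 to 3 and 20.1, 12.1 and 16.3 CPM in HFD 1 to 3, with the co-receptor gene Cd8a (1.70, SE 0.74), the T cell receptor gene Trac (-0.20, SE 0.54) and the cytotoxic granule gene Nkg7 (-0.26, SE 0.64) as its most abundant members. The endothelial list, led by the junction genes Pecam1 and Cdh5 and the VEGF receptor gene Kdr, was 428, 3792 and 367 CPM in THBru 1 to 3, against 1965, 2363 and 3252 CPM in HFD 1 to 3. Like globin, it was highest in THBru 2 and low in THBru 1 and THBru 3, but it reached 1.50 times the HFD mean in THBru 2, where globin reached 2.92 times. Over the 8 companion lists of red cell, haem and blood genes, 0 of 65 tested genes passed in edgeR, 16 had an unadjusted p under 0.05 (9 higher, 7 lower), and DESeq2 called 11 (5 higher, 6 lower). These are 24.6% and 16.9% of the 65, near the 22.9% and 17.2% of all genes. Of the 6 lower DESeq2 calls, 5 were among the 12 tested haem and iron handling genes.

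**Figure D5:**
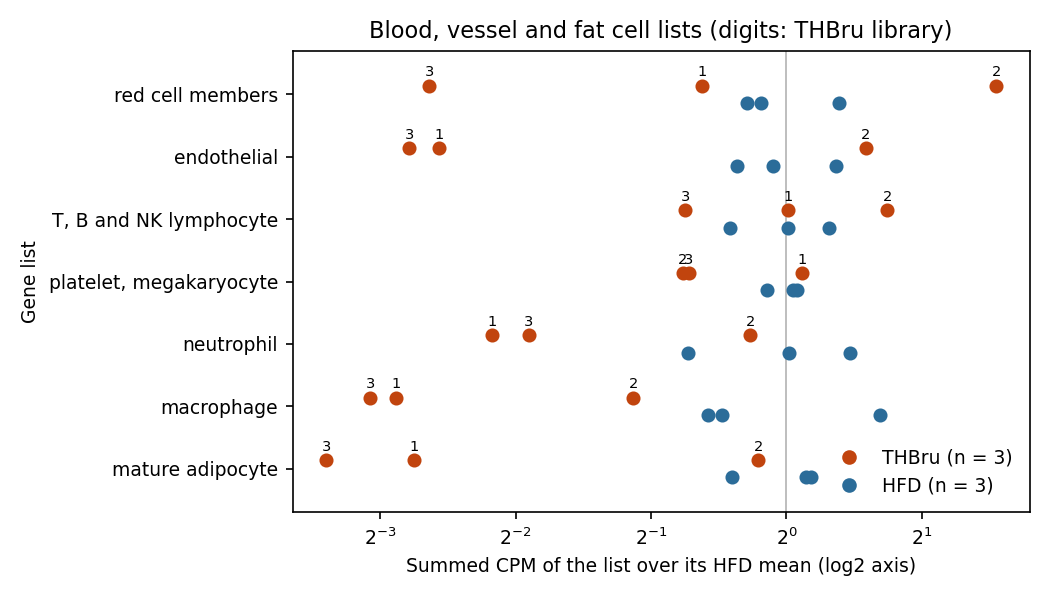
Summed CPM of the red cell genes and of 6 cell type lists in each library, divided by the mean of the 3 HFD libraries (log2 axis), with digits for the THBru library. In THBru 2 the red cell genes stand at 2.93 times and the endothelial list at 1.50 times the HFD mean, while the platelet list stands at 0.588 and the macrophage list at 0.456.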

How the data were processed

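Per the labels' protocols, poly(A) RNA of white adipose tissue was converted to dUTP-marked libraries and sequenced as paired reads of 150 bases. The submitters' processing notes name edgeR, DESeq2, StringTie 2.1.6, HISAT2 2.2.1 and Cutadapt 1.9, with no roles. Not given in the sources used here are the counting program, its strand setting and how it assigned reads that match both genes of a globin pair. The deposited count columns are whole numbers that were not normalized, and the deposited FPKM columns are the authors' own scaling by length and depth. Identifiers and coordinates are those of the table, and are read as GRCm38.

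The 32819 rows were summed by symbol into 32759 genes. CPM are counts over the column total. The 16140 genes averaging 0.5 FPKM or more were tested with edgeR 4.0.16 (quasi-likelihood, robust, TMM; R 4.3.3), THBru against HFD, two-sided, with Benjamini-Hochberg adjustment over all genes and a threshold of 0.05. SEs come from the fold change and its F statistic. The steps were tested on simulated counts. Ratios within a library were compared by exact permutation over 20 relabellings. DESeq2 1.42.0, other scalings and filters, a replicate block and each library left out were alternatives.

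The 6 genes are always named. The rule names up to 3 most abundant genes of each companion list; those of the macrophage, adipocyte and other-organ lists, used for summed levels, are left out. It also names the 10 genes whose pattern was most like the summed globins, apart from a few that are not reported here. Gata1, Klf1, Tal1, Epor, Xk, Alad, Tent5c, Blvra, Slc11a1, Slc48a1, Cd163, Hmox1, Gp9, Gp1ba, Clec1b and P2ry12 are named too, picked after seeing their values. The members and lists were chosen with earlier results of these data known, so no list was tested as a set.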

Additional observations from a re-analysis of the deposited data

How the results depend on the processing

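None of the 5 tested red cell genes was called under any of the 14 alternatives run. Of all genes, 19 were called, 53 with total counts only, 8053 scaled to mature adipocyte genes, 2773 by DESeq2, 356 with THBru 2 alone, and 0 (without any of the HFD libraries) to 1552 (without THBru 2) on leaving a library out. Fitting the replicate number as a block gave 0 calls. The labels used here do not say whether the numbers pair the libraries. Same-numbered deviations correlated at 0.05, -0.02 and -0.06, and differently numbered ones at -0.05 to 0.08. These values cannot exclude a pairing, because the THBru libraries also differ in their content of other-organ genes. The summed globin log2 ratio of means was 0.31. The mean of the 3 same-number log2 ratios was -0.54, which by arithmetic equals the unpaired difference of mean log2 CPM, so it cannot show an effect of the block. In edgeR the block turned the log2 fold changes of the 5 tested genes negative. They were -0.43 (Hba-a1) to -0.20 (Alas2) with it, against 0.27 (Hba-a1) to 0.45 (Hbb-bs) without it. With a library left out the ratio of means ran between -1.31 (without THBru 2) and 0.84 (without THBru 3). Of the 65 tested blood companion genes, 0 were called in the main fit and 21 scaled to adipocyte genes, where 49.9% of all genes were called. DESeq2 called 11, where 17.2% of all genes were called. With a library left out, 0 to 6 were called. The 6 were without THBru 2, where 1552 of all 16140 genes were called. These alternatives were added after seeing the data. The ratio of Hbb-bt to Hbb-bs (log2 difference -0.0032) ran from -0.062 to 0.073 with a library left out, and turned positive without THBru 2, HFD 1 or HFD 3. Slc4a1 per globin (-0.34) ran from -0.73 to 0.22, and turned positive without THBru 1 or HFD 2. The cause was not tested. Alpha to beta globin stayed negative in its 8 alternatives, from -0.18 to -0.10. Depth limits Slc4a1, with 17 to 230 counts a library, and not the globins.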
